A study of Rattus norvegicus with 4 samples.

Results

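The 33 genes described here cover cholesterol synthesis (17 enzyme genes and the sterol carrier gene Stard4, 18 in all), the enzymes of fatty acid synthesis, elongation and desaturation (10 genes) and the proteins that switch both pathways on and off (5 genes). They were chosen by name, with earlier results of these data known. Each was found under its symbol among the 22050 genes of every deposited table. Whole-lung mRNA had been sequenced from SD rats, as the labels name the strain, whose lungs were taken at day 28, after 1 injection of 0.2 mL into the trachea. The 2 treated rats received bleomycin at 5 mg/kg, an antibiotic that breaks DNA and induces lung scarring in rodents, and the 2 control rats received normal saline. Each library came from 1 rat, so every group holds 2 libraries. The p-values set the difference between the groups against the spread between animals of a group, which is estimated partly from other genes. The comparison asks how transcript levels of these genes in injured lungs stood to those in uninjured lungs at that time, branch by branch.

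Cells make cholesterol from acetyl-CoA through mevalonate, farnesyl diphosphate, squalene and lanosterol, and make fatty acids from the same acetyl-CoA through malonyl-CoA. Both pathways are driven by sterol regulatory element-binding proteins, membrane-bound transcription factors that the escort protein SCAP carries to the Golgi for cleavage when sterols are scarce and that the INSIG proteins hold back in the endoplasmic reticulum when sterols are plentiful. In the lung, alveolar type 2 cells make the fatty acids of surfactant phospholipid, and fibroblasts, macrophages and dividing cells need cholesterol for membranes.

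Few of the pathway genes passed the test, and the medians of the branches lay on different sides of 0. Of the 18 sterol genes, 2 (Mvd and Dhcr7) rose and none fell with bleomycin, and none of the 10 fatty acid genes and none of the 5 regulators passed. Passing means a Benjamini-Hochberg adjusted p under 0.05 over all tested genes in the quasi-likelihood test of edgeR. That is 6.06% of the 33 genes, all of which were abundant enough to be tested, against 17.0% of all 15709 tested genes (9.26% higher and 7.79% lower). Before adjustment, edgeR gave a p under 0.05 to 8 of the 33 genes, against 36.5% of all tested genes (19.3% higher and 17.1% lower): 5 sterol and 2 fatty acid genes were above the controls and 1 regulator was below. By DESeq2's Wald test 5 of the 33 were higher and 1 was lower at an adjusted p under 0.05, against 25.6% of all tested genes in either direction. Both bleomycin libraries lay above both controls in 15 of the 33 genes (45.5%) and below both in 6 (18.2%), against 35.1% and 33.4% of all tested genes. The groups overlapped in the remaining 12, against 4942 of all 15709 tested genes (68.5% did not overlap). The median size of the log2 change, whatever its sign, was 0.25 for the 33 genes and 0.33 for all tested genes. The median log2 fold change, bleomycin over control, was 0.25 for the sterol branch, -0.24 for the fatty acid branch and -0.10 for the regulators, against 0.01 over all tested genes. Of the 18 sterol genes, 16 had a fitted change above 0, whereas 7 of the 10 fatty acid genes had one below 0; over all tested genes 51.1% were above 0.

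**Figure D1:**
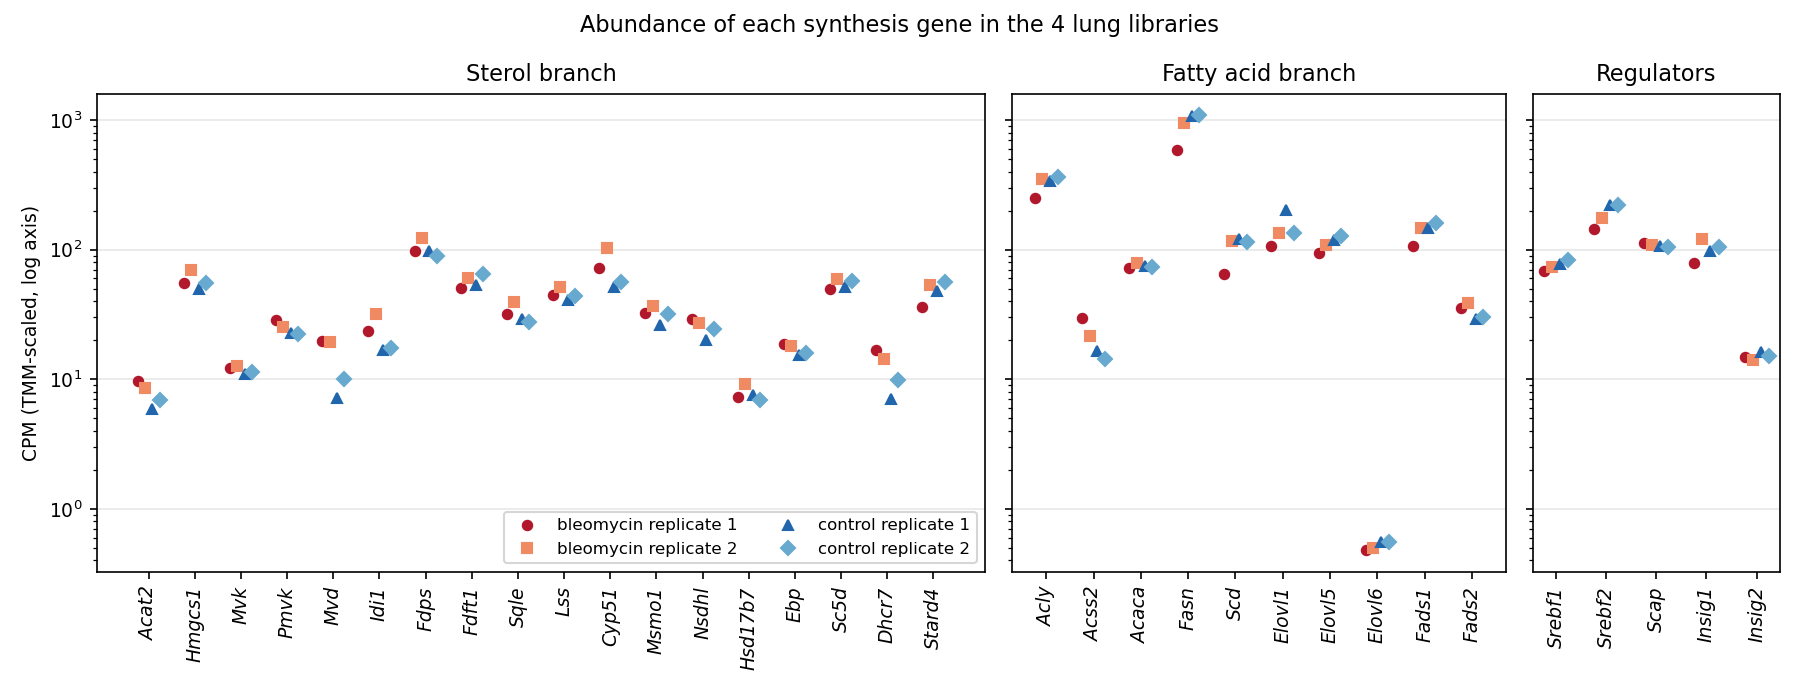
CPM (counts scaled to library depth by the trimmed mean of M values) of each gene in the 4 libraries on a log axis, with sterol genes in pathway order on the left, fatty acid genes in the middle and regulators on the right. Mvd shows both bleomycin libraries near 19.6 CPM with both controls at 10.1 CPM or lower, and Fasn shows bleomycin replicate 1 at 585 CPM apart from the other 3 libraries.

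Total counts were between 34683699 and 44381111 per library, and the genes described here had between 205 and 47536 counts in every library, except Elovl6 with 19 to 24. Averaged over 15067 genes of the whole series, counts varied between the bleomycin replicates 101 times as much as sampling alone gives. Between the controls the average over 14792 genes was 23.5 times. Abundant genes weigh most in these averages, so they do not describe a typical gene. Of markers known for other lung cells, 5 of 8 macrophage genes, 4 of 7 fibroblast genes and 6 of 6 proliferation genes rose, and 3 of 5 endothelial genes fell. Over all tested genes 9.26% rose and 7.79% fell. None of 11 alveolar type 2 markers and none of 5 heart muscle markers passed, and 1 of 7 adipocyte markers fell. Of all tested genes 17.0% passed in either direction. In whole tissue, fewer cells of a type and less RNA per cell cannot be told apart. The surfactant gene Sftpc, which marks lung tissue, was at 6822 CPM or higher in each library.

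Among the regulators, none passed the test. Srebf2 (ENSRNOG00000007400), which encodes the factor best known for driving cholesterol genes, had the smallest p of the 5. It was at 145 and 176 CPM in replicates 1 and 2 of the bleomycin group, against 219.8 and 221 CPM in control replicates 1 and 2. Both treated lungs lay below both controls, with a log2 fold change of -0.46 ± 0.13 (SE; 95% interval -0.78 to -0.13; edgeR adjusted p = 0.0669). Srebf2 passed under 2 of 10 alternative settings, described at the end, among them DESeq2's Wald test on all 4 libraries (adjusted p = 0.0169). Under these settings its log2 fold change lay between -0.62 and -0.33. Srebf1 (ENSRNOG00000003463), whose SREBP-1c product is best known for driving fatty acid genes, was at 68.1 and 73.1 CPM in bleomycin-treated lungs and 77.1 and 83.2 CPM in controls. Its groups did not overlap either, and its log2 fold change was -0.18 ± 0.10 (SE; edgeR adjusted p = 0.253).

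Scap (ENSRNOG00000020853), the escort gene, hardly differed between libraries, at 112 and 108 CPM in bleomycin-treated lungs and 107 and 106 CPM in controls. The 95% interval of its log2 fold change ran from -0.19 to 0.29. Insig1 (ENSRNOG00000006859), itself a known target of these factors, split the treated lungs instead. It was at 78.3 and 122 CPM in bleomycin replicates 1 and 2, on either side of the controls at 97.5 and 105 CPM. Its fitted log2 fold change of -0.02 ± 0.22 (SE) thus averages a lower and a higher animal. It was -0.39 without bleomycin replicate 2 and 0.26 without bleomycin replicate 1, and Insig1 passed under 1 of 10 alternative settings. Insig2 (ENSRNOG00000002478), the other retention protein gene, was at 14.8 and 14.1 CPM in bleomycin-treated lungs and 16.1 and 14.98 CPM in controls.

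The first steps of the sterol branch lead from acetyl-CoA to the isoprenoid building blocks. Mvd (ENSRNOG00000013376), mevalonate diphosphate decarboxylase, showed the largest change of all 33 genes. It had 19.7 and 19.5 CPM in replicates 1 and 2 of the bleomycin group, against 7.15 and 10.1 CPM in control replicates 1 and 2. The treated lungs were nearly equal and both lay above both controls. Mvd rose 2.26-fold (95% interval 1.59 to 3.20; log2 fold change 1.17 ± 0.20, SE; edgeR adjusted p = 0.0241). It was called under 8 of 10 alternative settings; without control replicate 1 its log2 fold change was 0.94 (edgeR adjusted p = 0.139), and without control replicate 2 it was 1.45 (edgeR adjusted p = 0.0947). In those fits 17 and 15 of all tested genes were called.

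Idi1 (ENSRNOG00000016690), the isomerase that interconverts the isoprenoid units, was at 23.7 and 31.8 CPM in bleomycin-treated lungs and 16.8 and 17.4 CPM in controls. Its groups did not overlap, but its log2 fold change of 0.70 ± 0.18 (SE) did not pass (edgeR adjusted p = 0.0527). It was called under 3 of 10 alternative settings, among them DESeq2's Wald test (adjusted p = 0.0126), with a log2 fold change between 0.45 and 0.89. Acat2 (ENSRNOG00000019189), the cytosolic thiolase at the pathway's entry, was at 9.65 and 8.62 CPM in bleomycin-treated lungs against 5.93 and 6.97 CPM in controls (edgeR adjusted p = 0.121). For Hmgcs1, Mvk and Pmvk, the synthase and the kinases between thiolase and decarboxylase, log2 fold changes were smaller, between 0.15 and 0.26, with edgeR adjusted p between 0.192 and 0.474. Hmgcs1 (ENSRNOG00000016552) was at 54.9 and 69.1 CPM in bleomycin-treated lungs and 49.7 and 55.1 CPM in controls, so its groups overlapped.

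Of the 4 genes from farnesyl diphosphate to lanosterol, none passed. Fdps (ENSRNOG00000043377), which makes farnesyl diphosphate, had 98.1 and 123 CPM in bleomycin-treated lungs and 98.5 and 90.04 CPM in controls. Sqle (ENSRNOG00000009550), squalene epoxidase, had 32.0 and 39.6 CPM in bleomycin-treated lungs and 29.3 and 27.9 CPM in controls. The Sqle groups did not overlap, and its log2 fold change of 0.32 ± 0.14 (SE) had an edgeR adjusted p of 0.165. Sqle was called under 1 of 10 alternative settings, with a log2 fold change between 0.14 and 0.46. Fdft1 (ENSRNOG00000021314), squalene synthase, was the enzyme gene of this branch with a fitted change below 0, at 50.2 and 60.9 CPM in bleomycin-treated lungs and 53.7 and 65.1 CPM in controls. Lss, the cyclase that closes the sterol rings, had a log2 fold change of 0.19 ± 0.12 (SE).

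After lanosterol, Dhcr7 (ENSRNOG00000020776), the reductase of the last step to cholesterol in one arm of the pathway, was the second gene to pass. It had 16.9 and 14.4 CPM in bleomycin replicates 1 and 2 and 7.005 and 9.87 CPM in control replicates 1 and 2. Both treated lungs lay above both controls. Dhcr7 rose 1.84-fold (95% interval 1.26 to 2.70; log2 fold change 0.88 ± 0.22, SE) with an edgeR adjusted p of 0.0497, at the edge of the threshold. The call was lost under 7 of 10 alternative settings, with adjusted p over all 10 between 0.00821 and 0.265 and a log2 fold change between 0.65 and 1.16.

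Cyp51 (ENSRNOG00000007234), lanosterol demethylase, was the most abundant of the genes after lanosterol by FPKM (fragments per kilobase of transcript, scaled to depth) in bleomycin-treated lungs. It was at 72.6 and 102 CPM in replicates 1 and 2 of the bleomycin group, against 51.6 and 56.7 CPM in controls. The groups did not overlap, but the treated lungs lay 0.49 apart on the log2 scale, and the log2 fold change of 0.69 ± 0.18 (SE) did not pass (edgeR adjusted p = 0.0596). Cyp51 was called under 4 of 10 alternative settings, among them DESeq2's Wald test (adjusted p = 0.00971), with a log2 fold change between 0.41 and 0.91. The other enzymes of these steps, Msmo1, Nsdhl, Hsd17b7, Ebp and Sc5d, had log2 fold changes between 0.00 and 0.34 and edgeR adjusted p of 0.151 or higher. Sc5d was at 49.7 and 58.9 CPM in bleomycin-treated lungs and 51.3 and 57.0 CPM in controls, with a 95% interval from -0.32 to 0.33. Stard4 (ENSRNOG00000020468), which encodes a sterol carrier protein and not an enzyme, was the member of the branch with the lowest fitted change. It had 36.3 and 53.1 CPM in bleomycin-treated lungs against 48.2 and 56.02 CPM in controls, with bleomycin replicate 1 below the other 3 libraries (edgeR adjusted p = 0.475). Stard4 was called under 1 of 10 alternative settings.

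**Figure D2:**
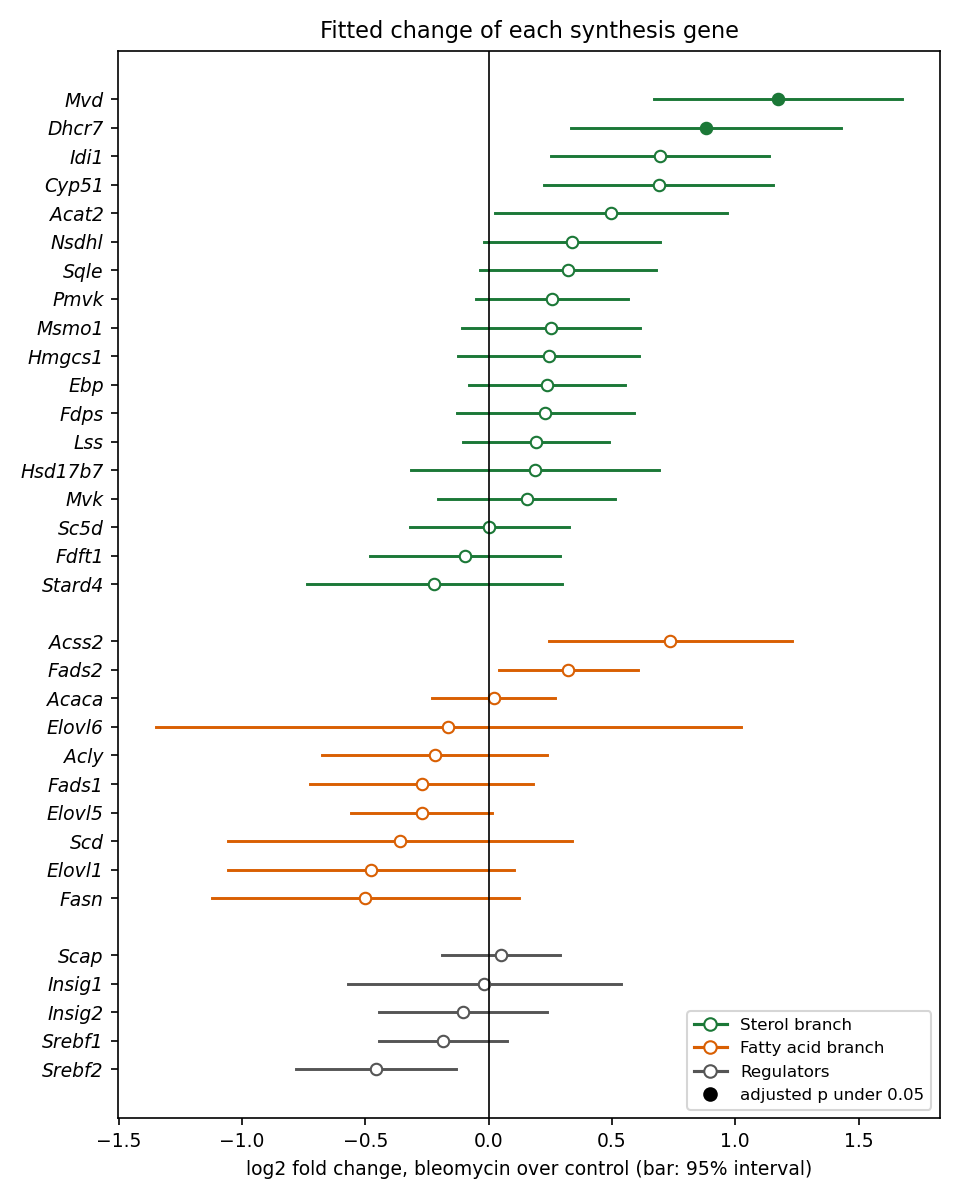
Fitted log2 fold change, bleomycin over control, of the 33 genes with 95% intervals (horizontal axis), sorted within each branch, with filled points for genes at an edgeR adjusted p under 0.05. The filled points are Mvd and Dhcr7, most sterol genes lie right of 0 and most fatty acid genes left of it.

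Promoter sequences are shown for the 4 sterol genes with the smallest p and for Srebf2, the regulator with the smallest p, because members of this branch share a known upstream factor. They are the 250 bases before the annotated start from RefSeq (build GRCr8, which is not the build of the counts), and 25 of the 33 genes had exactly 1 entry. Each is written 5′ to 3′ on the gene's strand, with capitals for a match to the first 8 letters of the sterol regulatory element (TCACNCCA) or to the CCAAT box, the motif of the partner factor NF-Y, on either strand; matches to an E-box (CACGTG) would be capitals too.
Mvd, chr19:67414975-67415224, minus strand: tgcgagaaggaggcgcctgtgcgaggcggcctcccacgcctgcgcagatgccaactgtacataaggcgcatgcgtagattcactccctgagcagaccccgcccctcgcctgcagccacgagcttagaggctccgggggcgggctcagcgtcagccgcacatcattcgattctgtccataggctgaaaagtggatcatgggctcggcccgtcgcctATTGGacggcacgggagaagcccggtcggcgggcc
Dhcr7, chr1:208444184-208444433, plus strand: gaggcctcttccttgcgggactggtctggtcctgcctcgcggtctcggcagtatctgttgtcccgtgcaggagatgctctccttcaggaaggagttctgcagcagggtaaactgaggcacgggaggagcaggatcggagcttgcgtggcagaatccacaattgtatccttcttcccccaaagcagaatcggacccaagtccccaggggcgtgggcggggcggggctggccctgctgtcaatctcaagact
Idi1, chr17:66547525-66547774, minus strand: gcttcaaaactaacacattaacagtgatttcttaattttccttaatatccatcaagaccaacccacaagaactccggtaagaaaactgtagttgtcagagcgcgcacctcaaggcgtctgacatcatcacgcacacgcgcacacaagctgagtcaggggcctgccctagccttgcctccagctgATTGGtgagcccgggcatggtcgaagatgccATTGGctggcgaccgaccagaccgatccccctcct
Cyp51, chr4:30991443-30991692, plus strand: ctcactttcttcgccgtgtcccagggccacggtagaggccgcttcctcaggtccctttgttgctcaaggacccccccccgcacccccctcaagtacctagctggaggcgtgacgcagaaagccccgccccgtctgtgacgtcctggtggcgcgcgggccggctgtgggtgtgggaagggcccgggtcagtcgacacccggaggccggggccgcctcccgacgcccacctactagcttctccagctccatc
Srebf2, chr7:115543057-115543306, plus strand: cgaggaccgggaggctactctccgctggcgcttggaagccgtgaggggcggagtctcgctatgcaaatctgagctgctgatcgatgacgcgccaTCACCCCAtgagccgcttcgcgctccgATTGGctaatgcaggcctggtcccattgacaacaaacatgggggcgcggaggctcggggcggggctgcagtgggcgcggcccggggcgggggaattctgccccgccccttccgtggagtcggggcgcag

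In these windows Mvd held 1 CCAAT box and Idi1 held 2, each read on the reverse strand as ATTGG, beginning 35 bases before the Mvd start and 66 and 35 bases before the Idi1 start. Srebf2 held a TCACNCCA match beginning 156 bases before its start and a CCAAT box 129 bases before it, while Dhcr7 and Cyp51 held none of these letters. CCAAT was present in 11 of 14 sterol promoters, 4 of 7 fatty acid promoters and 3 of 4 regulator promoters, against 34.02% of all 33469 promoters in the table and 35.1% of the 10574 promoters of tested genes. TCACNCCA was present in 2 of 25 (Msmo1 and Srebf2) against 3.24% of all promoters, the full 9 letters TCACNCCAC, which contain it, in 0 of 25 against 0.974%, and CACGTG in 4 of 25 against 5.59%. A match describes these letters and not a bound site.

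The fatty acid branch held the most abundant of the 33 genes. Per transcript length, Elovl1, Fasn, Elovl5 and Acly ranked highest of the 33 in both groups, at 144 ± 21.5, 83.9 ± 27.3, 92.1 ± 7.62 and 69.8 ± 15.3 FPKM in bleomycin-treated lungs and 200.1 ± 56.3, 119 ± 1.10, 111 ± 5.32 and 81.2 ± 4.62 FPKM in controls (SD, n = 2 each). Elovl6, an elongase of palmitate, was the lowest, at 0.445 FPKM in bleomycin-treated lungs and 0.495 FPKM in controls.

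Fasn (ENSRNOG00000045636), the multi-domain synthase that builds palmitate, was at 585 and 949.5 CPM in replicates 1 and 2 of the bleomycin group, against 1082 and 1089 CPM in control replicates 1 and 2. Both treated lungs lay below both controls, replicate 1 at 53.9% and replicate 2 at 87.5% of the control mean. The log2 fold change of -0.50 ± 0.25 (SE; 95% interval -1.12 to 0.12) did not pass (edgeR adjusted p = 0.204). Scd (ENSRNOG00000013552), the desaturase that makes oleate and palmitoleate, was at 65.4 and 117 CPM in bleomycin-treated lungs and 119.9 and 115 CPM in controls. Here replicate 1 was at 55.8% of the control mean and replicate 2 at 100.2%. Reads of Scd and its close relative Scd2 could be shared, which was not tested, so the level of Scd is uncertain to that extent.

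Acly (ENSRNOG00000016924), which releases acetyl-CoA from citrate, and Fads1 (ENSRNOG00000020480), the delta-5 desaturase of polyunsaturated fatty acids, showed the same layout. Acly was at 251 and 348 CPM in bleomycin replicates 1 and 2 and at 336 and 362 CPM in controls. Fads1 was at 106 and 148 CPM in bleomycin-treated lungs and 146 and 161 CPM in controls. In both genes bleomycin replicate 1 was the lowest library and replicate 2 lay at or between the controls' level. Elovl5 (ENSRNOG00000006331), an elongase of polyunsaturated fatty acids, was at 94.97 and 108 CPM in bleomycin-treated lungs against 119 and 127 CPM in controls, with a log2 fold change of -0.27 ± 0.11 (SE; edgeR adjusted p = 0.150). Without bleomycin replicate 2, Fasn, Scd, Acly, Elovl5 and Fads1 were all called lower, with edgeR adjusted p between 0.00511 and 0.0340; in that fit 33.4% of all tested genes were called (17.1% higher and 16.3% lower) and the lone treated lung is assumed to vary like the controls. Without bleomycin replicate 1, none of the 10 was called, against 16.0% of all tested genes.

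Acss2, Fads2 and Acaca did not follow. Acss2 (ENSRNOG00000018755), which makes acetyl-CoA from acetate, was at 29.7 and 21.6 CPM in bleomycin-treated lungs against 16.4 and 14.4 CPM in controls. Its groups did not overlap and it had the highest fitted value of the branch, a log2 fold change of 0.74 ± 0.19 (SE), which did not pass (edgeR adjusted p = 0.0585). Acss2 was called under 3 of 10 alternative settings, among them DESeq2's Wald test (adjusted p = 0.0139). Fads2 (ENSRNOG00000020440), the delta-6 desaturase, was at 35.2 and 38.7 CPM in bleomycin-treated lungs and 29.0 and 30.01 CPM in controls (edgeR adjusted p = 0.102). Acaca (ENSRNOG00000034013), the carboxylase that makes malonyl-CoA for synthesis, was at 72.4 and 78.6 CPM in bleomycin-treated lungs and 75.2 and 73.7 CPM in controls, with a 95% interval of the log2 fold change from -0.23 to 0.27. Elovl1 (ENSRNOG00000028448), an elongase of very long saturated chains, was at 106 and 133 CPM in bleomycin-treated lungs, while the controls themselves lay apart at 201 and 133 CPM. Its fitted log2 fold change was below 0, at -0.48 ± 0.23 (SE; edgeR adjusted p = 0.195), and bleomycin replicate 1 was its lowest library.

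Each treated lung was then set against both controls. Of the 18 sterol genes, bleomycin replicate 1 lay above both controls for 12, against 45.0% of all tested genes, and replicate 2 for 16, against 43.5%. Both treated lungs lay above both controls for 12 of 18 sterol genes (66.7%; 35.1% of all tested genes) and below both for 0 of 18 (33.4% of all tested genes). Of the 10 fatty acid genes, bleomycin replicate 1 lay below both controls for 8, against 43.5% of all tested genes, and replicate 2 for 3, against 41.3%. Groups overlapped for 5 of the 10, against 4942 of all 15709 tested genes (68.5% did not overlap). The median log2 difference from the control mean in replicates 1 and 2 was 0.16 and 0.35 for the sterol branch and -0.42 and -0.03 for the fatty acid branch. The sterol median thus exceeded the fatty acid median by 0.58 in replicate 1 and by 0.37 in replicate 2, or by 0.49 in the fit. The same difference between the branches was -0.14 between the controls, replicate 1 minus replicate 2. Since genes of a branch vary together and the groups hold 2 animals each, this is a description and carries no test. The branches were also chosen with earlier results of these data known.

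**Figure D3:**
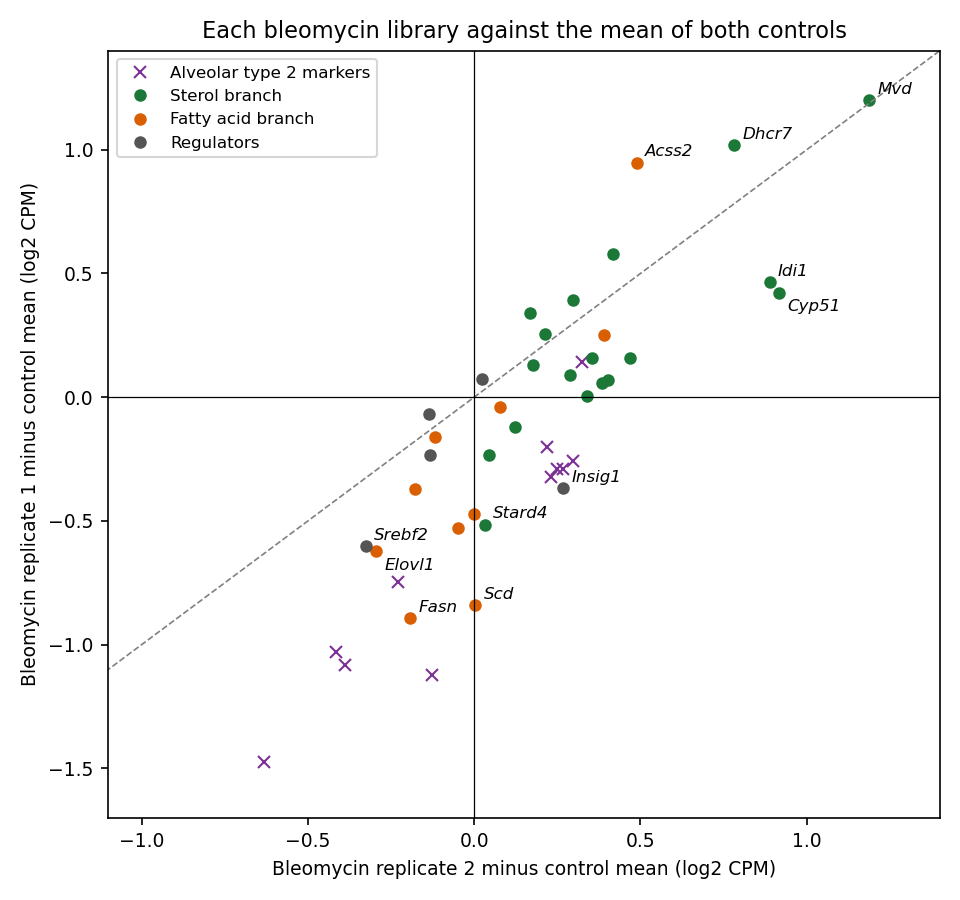
Difference in log2 CPM from the mean of both controls for bleomycin replicate 2 (horizontal) and replicate 1 (vertical), with a dashed line where both are equal; circles are the 33 genes by branch and crosses are 11 alveolar type 2 markers. Sterol genes lie mostly up and right of 0, while 9 of the 10 fatty acid genes, all but Acss2, lie lower in replicate 1 than in replicate 2, as do 12 of the 18 sterol genes and all 11 type 2 markers.

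Between the treated lungs, replicate 1 was below replicate 2 for 9 of 10 fatty acid genes, 12 of 18 sterol genes, 11 of 11 alveolar type 2 markers and 5 of 5 endothelial markers, against 48.9% of all tested genes. Replicate 1 was the lowest of the 4 libraries for 8 of the 10 fatty acid genes, 3 of the 18 sterol genes, 10 of the 11 type 2 markers and 5 of the 5 endothelial markers, against 33.8% of all tested genes. The endothelial marker Cldn5, picked out after its values were seen, was at 0 CPM in bleomycin replicate 1. Cldn5 was at 17.2 CPM in bleomycin replicate 2 and at 15.5 and 7.95 CPM in controls. The summed level of the type 2 markers was 19972 and 32072 CPM in replicates 1 and 2 of the bleomycin group, against 33757 and 33752 CPM in controls, and none of them was at 0 in any library. That sum is mostly surfactant protein transcripts, led by Sftpc. Gene by gene, replicate 2 lay above both controls for 6 of the 11 markers and below both for 5, with a median log2 difference of 0.22 from the control mean, whereas replicate 1 lay below both for 10, with a median of -0.32. The summed level of the fatty acid branch was 1347 and 1945 CPM in bleomycin-treated lungs and 2125 and 2105 CPM in controls. The sterol branch summed to 636 and 762 CPM in bleomycin-treated lungs and 563 and 608 CPM in controls. The part of type 2 and endothelial cells in either pattern was not tested.

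Macrophage markers summed to 2847 and 2695 CPM in bleomycin-treated lungs and 988 and 1083 CPM in controls, and Gpnmb had the highest mean over all 4 libraries. Proliferation markers, led by Mki67, summed to 315 and 191 CPM in bleomycin-treated lungs and 61.8 and 63.3 CPM in controls. Both lists were thus higher in both treated lungs, as were the sterol branch and the fibroblast and adipocyte lists below. These 4 marker sums were higher in bleomycin replicate 1 than in replicate 2, whereas the sterol sum was lower. The part of any of these lists in the sterol levels was not tested. Fibroblast markers, led by Col3a1, summed to 15025 and 7701 CPM in bleomycin-treated lungs and 2975 and 2968 CPM in controls, and endothelial markers, led by Vwf, to 1444 and 2039 CPM in bleomycin-treated lungs and 4401 and 3776 CPM in controls. Adipocyte markers summed to 125 and 114 CPM in bleomycin-treated lungs and 111 and 34.9 CPM in controls. That sum is carried by Fabp4, which had the highest mean over all 4 libraries, and Cfd; the other 5 of 7 tested markers had fitted changes below 0, and the list's median log2 fold change was -0.81. Plin1 and Retn, picked out after their values were seen, were at 0 in control replicate 2 and at 5.99 and 2.17 CPM in control replicate 1. The part of fat cells in the fatty acid values was not tested. Heart muscle markers, of which Actc1 had the highest mean over all 4 libraries, summed to 116 and 66.5 CPM in bleomycin-treated lungs and 186 and 37.2 CPM in controls.

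**Figure D4:**
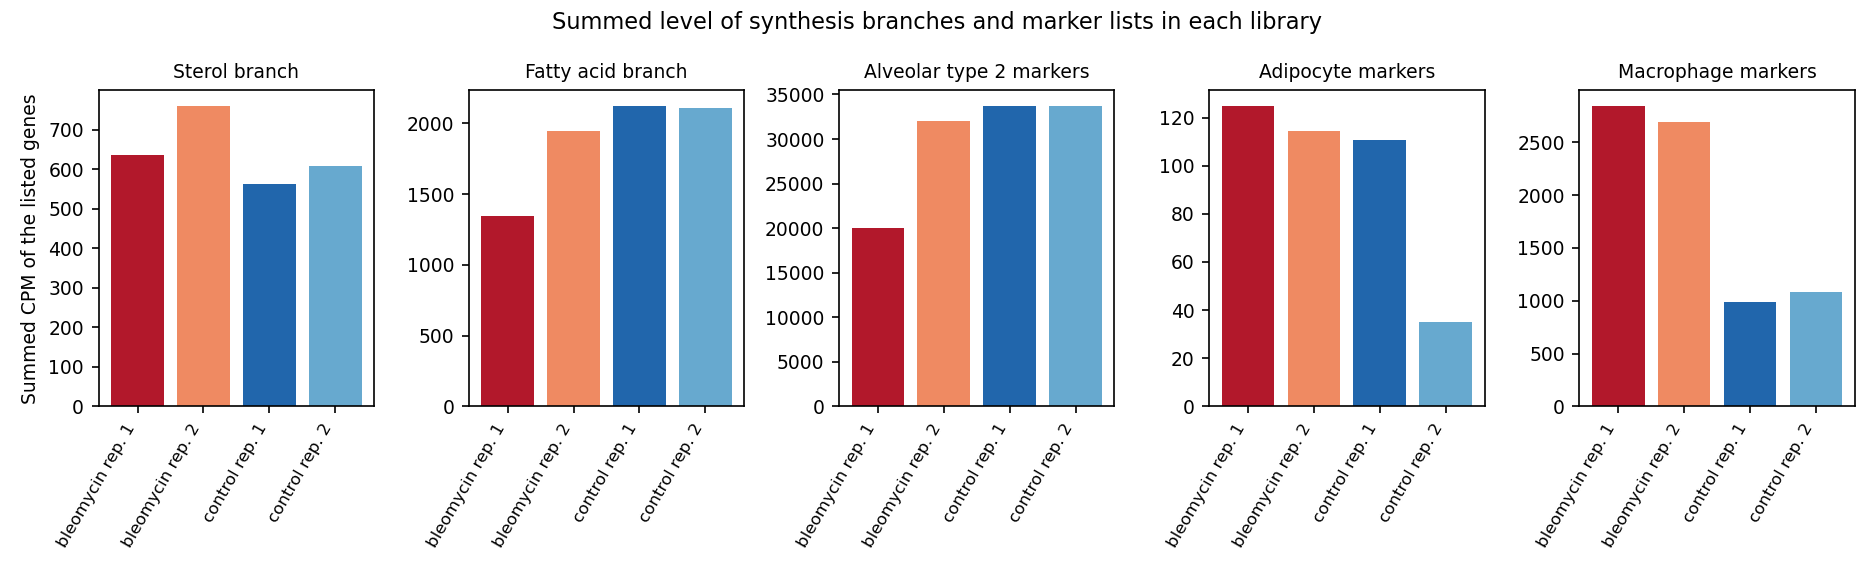
Summed CPM of the 18 sterol genes, the 10 fatty acid genes and the alveolar type 2, adipocyte and macrophage marker lists in each library, with the bleomycin libraries left of the controls and each vertical axis starting at 0. The fatty acid bars and the type 2 bars are lowest in bleomycin replicate 1, while the macrophage bars are higher in both bleomycin libraries.

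Neighbouring genes of the pathways were taken from a list of 15 sterol-related and 32 fatty acid-related genes. Of 14 tested sterol-related genes, 1 rose and 1 fell (14.3%, against 17.0% of all tested genes), with a median log2 fold change of 0.00. Soat1 (ENSRNOG00000004111), which esterifies cholesterol for storage, rose 1.36-fold, at 158 and 156 CPM in bleomycin-treated lungs against 114 and 117 CPM in controls (edgeR adjusted p = 0.0380).

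Of 29 tested fatty acid-related genes, 2 rose and 3 fell (17.2%, near the 17.0% of all tested genes), with a median log2 fold change of 0.01. Slc25a1 (ENSRNOG00000038001), the carrier that exports citrate from mitochondria for Acly, rose 1.58-fold, at 70.1 and 71.1 CPM in bleomycin-treated lungs against 44.5 and 44.8 CPM in controls (edgeR adjusted p = 0.0179). Gpam (ENSRNOG00000015124), which starts glycerolipid synthesis, rose 1.35-fold, at 145 and 144 CPM in bleomycin-treated lungs against 109 and 106 CPM in controls (edgeR adjusted p = 0.0394). Acacb (ENSRNOG00000000658), the carboxylase whose malonyl-CoA restrains fatty acid oxidation, was at 18.5 and 25.7 CPM in bleomycin-treated lungs against 52.6 and 47.2 CPM in controls, and fell by 1.17 on the log2 scale (edgeR adjusted p = 0.0208), where its paralogue Acaca did not pass. Fads3 (ENSRNOG00000020385), a desaturase of the Fads1 and Fads2 family, was at 81.9 and 86.3 CPM in bleomycin-treated lungs against 149 and 154 CPM in controls, and fell by 0.84 on the log2 scale (edgeR adjusted p = 0.0135). Acsl1 (ENSRNOG00000010633), which activates long-chain fatty acids, was at 45.3 and 43.4 CPM in bleomycin-treated lungs against 73.8 and 67.5 CPM in controls, and fell by 0.67 on the log2 scale (edgeR adjusted p = 0.0202). In these 5 genes the treated lungs lay closer to each other than to the controls.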

How the data were processed

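Counts per gene and FPKM were used as the authors deposited them, 1 table per library. Per the labels' protocols, poly(A) RNA was fragmented and primed at random, with no strand-marking step described, so reads of a gene and its antisense partner stay mixed. The build was Rnor_6.0, and the tools named in the submitters' processing notes are DESeq2, HISAT2, StringTie 1.3.1, CASAVA 1.8 and fastp 0.18.0, without settings. FPKM, which the authors deposited beside the counts, served only to rank genes by level.

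Genes passing filterByExpr (minimum count 10, total 15) were scaled with TMM and tested in edgeR 4.0.16 (R 4.3.3; quasi-likelihood F test, robust, group as the only term, 2 residual degrees of freedom plus a median of 3.30 shared), which was tested on simulated data. Adjusted p under 0.05 was a call. SE is the log2 change divided by the square root of F, and 95% intervals use the t distribution. Log2 differences of single libraries use log2(CPM + 0.1). Alternatives included DESeq2 1.42.0. The members, branches and 9 other gene lists were chosen with earlier results of these data known. All members are named; of neighbouring genes those called and the 2 with the smallest p; of marker lists the most abundant. 1 called gene of the sterol-related list is counted but not reported here. Lbr, Mlxipl and Pecam1 were not found under their symbols.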

Additional observations from a re-analysis of the deposited data

How the results depend on the processing

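Of the 33 genes, 27 kept the sign of their log2 change under every one of the 10 alternatives in which they were tested; Elovl6 was not tested with a filter of 1 CPM. Sterol genes called higher numbered 2 of 18, against 9.26% of all tested genes. The count was 1 with DESeq2 size factor scaling (9.11% of all tested genes called higher) and 1 with no filter on low counts (7.80%). It was 1 without robust estimation (9.35%) and 4 by DESeq2's Wald test (13.6%). DESeq2's Wald test also called 1 fatty acid gene higher and 1 regulator lower, and 1887 genes lower over all tested genes. Leaving out each library in turn gave 0 to 4 sterol genes higher and 0 to 1 lower, 0 to 1 fatty acid genes higher and 0 to 5 lower, and 0 to 2 regulators lower, with a regulator median between -0.25 and -0.079. Over all tested genes it gave 9 to 2750 calls higher and 6 to 2612 lower; with either control left out, 9 genes were called higher and 8 or fewer lower, none of them among the 33, so the calls of Mvd and Dhcr7, like nearly all others, were lost there, with log2 changes of 0.94 and 0.65 without control replicate 1 and 1.45 and 1.16 without control replicate 2. The sterol median exceeded the fatty acid median by 0.37 to 0.58.

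Sc5d changed sign with DESeq2 size factor scaling (-0.0047), by DESeq2's Wald test (-0.0047) and with the 1 CPM filter (-0.0032), and ranged from -0.14 to 0.12 with each library left out. Ranges crossed 0 also for Fdft1 (-0.26 to 0.051), Hsd17b7 (-0.0092 to 0.34), Stard4 (-0.54 to 0.022), Acaca (-0.056 to 0.075) and Insig1 (-0.39 to 0.26). The cause was not tested.

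Replicate numbers in the labels do not state a pairing, and replicate 1 minus 2 differences of the groups had a correlation over genes of -0.0024. With the replicate number as a block, 3 sterol genes and 1 fatty acid gene were called higher (8.47% of all tested genes were), and Dhcr7 was not (edgeR adjusted p = 0.0592).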
